A study of Mus musculus with 6 samples.

Results

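The 6 mature microRNAs (miRNAs) followed here in mouse liver are cut from introns of genes of lipid and energy metabolism. They are miR-33-5p and miR-33-3p from Srebf2, miR-378a-3p and miR-378a-5p from Ppargc1b, and miR-103-3p and miR-107-3p from the pantothenate kinase genes Pank1, Pank2 and Pank3. They were chosen by name and host gene, by a rule that uses no measured value, and make up 6 of the 1907 distinct miRNAs of the deposited table. Earlier results of these data were known when the choice was made. Small RNA was sequenced from the livers of 3 female and 3 male mice of the C57BL/6N strain. All 6 animals were littermates, 12 weeks old, on standard chow, healthy and untreated. No allele, transgene or treatment sets the groups apart, so sex, in a study of sex-dependent liver injury, is the only contrast. How many litters they came from was not stated.

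An intronic miRNA is transcribed as part of its host transcript, and the hairpin is then cut out and processed into a 5p and a 3p strand, of which one is usually kept. Srebf2 encodes SREBP-2, the transcription factor that switches on cholesterol synthesis, and miR-33-5p is known to repress the cholesterol exporter Abca1 and genes of fatty acid oxidation. Ppargc1b encodes PGC-1 beta, a coactivator of mitochondrial gene expression, and the miR-378a hairpin is known as a regulator of mitochondrial metabolism. Pantothenate kinases catalyse the rate-limiting step of coenzyme A synthesis, and miR-103-3p and miR-107-3p are known in mouse liver as regulators of insulin sensitivity.

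The mature strands are shown because the counting has to tell them apart, with the seed (bases 2 to 8, which pair with target RNAs) in capitals. They are from RefSeq, build GRCm38.p6, and are written 5′ to 3′.
miR-33-5p: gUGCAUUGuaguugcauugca
miR-33-3p: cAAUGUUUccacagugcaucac
miR-103-3p: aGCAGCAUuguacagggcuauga
miR-107-3p: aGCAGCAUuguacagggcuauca
The seed GCAGCAU is the same in miR-103-3p and miR-107-3p. Among the 1623 miRNAs of the table with a RefSeq sequence, no other miRNA had this seed, and none shared the seed of miR-33-5p or that of miR-33-3p. Both 3p strands of the Pank hairpins are 23 bases long and differ at 1 position, G22C from miR-103-3p to miR-107-3p, counted from the 5′ end. A read that ends before this base cannot be assigned to one of them by its sequence.

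The 4 hairpins with a RefSeq sequence are shown with their mature strands in capitals, the 5p strand first, because the Pank hairpins also differ on the 5p side.
Mir33: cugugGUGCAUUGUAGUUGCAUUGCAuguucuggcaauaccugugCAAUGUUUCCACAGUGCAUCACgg
Mir103-1: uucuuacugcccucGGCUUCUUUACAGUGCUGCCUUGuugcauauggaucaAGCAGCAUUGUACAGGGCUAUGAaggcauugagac
Mir103-2: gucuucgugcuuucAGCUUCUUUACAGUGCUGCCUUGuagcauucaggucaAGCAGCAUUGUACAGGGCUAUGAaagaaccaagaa
Mir107: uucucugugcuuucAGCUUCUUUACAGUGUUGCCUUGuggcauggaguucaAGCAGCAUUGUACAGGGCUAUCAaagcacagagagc
Mir103-1 and Mir103-2 carry the same 3p strand, so their 3p reads cannot be separated. Their 5p strands differ at 1 position, G1A from miR-103-1-5p to miR-103-2-5p. The 5p strand of Mir107 differs from that of Mir103-2 by C16U.

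All 5 hairpins lie in introns of their hosts, on the host's strand (GENCODE M21, mm10). Mir33 (chromosome 15, 82198122 to 82198190) is in intron 16 of Srebf2, 335 bases after the upstream exon of an intron of 1848 bases. Mir378a (chromosome 18, 61397835 to 61397900, minus strand) is in intron 1 of Ppargc1b, which is 76981 bases long, and lies 2389 bases from its start. The Pank hairpins share their place in the gene, each in intron 5: Mir103-2 (chromosome 2, 131288052 to 131288137) in Pank2, Mir103-1 (chromosome 11, 35782396 to 35782481) in Pank3 and Mir107 (chromosome 19, 34820687 to 34820773, minus strand) in Pank1. Those hairpins start 454, 688 and 326 bases after the upstream exon, in introns of 5801, 1740 and 7282 bases. The table has 1 position for miR-103-3p, that of the Pank2 copy, in 2 identical rows, of which 1 was kept.

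Female libraries held 3285249 to 5756418 counts and male libraries 4617647 to 16444674. The hepatocyte miRNA miR-122-5p ranked first in every library, with 32.5 to 33.8% of the counts in females and 33.8 to 35.5% in males, in accord with the tissue label. Male replicate 2 lay farthest out on the first principal component, which held 51.3% of the variance and separated the sexes. Between females and males, 25 of the 370 tested miRNAs passed an adjusted p of 0.05 in the quasi-likelihood test of edgeR, 12 higher and 13 lower in females. Where nothing else is said, levels are CPM, the usual per-library scaling of counts to a common total, with each total adjusted by the TMM method. CPM is not scaled by length, and levels of different miRNAs also depend on how well each is ligated and amplified. In CPM, miR-122-5p averaged 315840 ± 556 for females and 364079 ± 22010 for males (SD, n = 3 each), without overlap. Its log2 fold change, female over male, was -0.21 (adjusted p = 0.053, edgeR), just short of the threshold. Of the 5 miRNAs listed as hepatocyte markers, miR-122-5p among them, 3 had a log2 fold change above 0 (median 0.02). The number past the threshold was 0. Those above 0 were miR-122-3p, the other strand of the same hairpin, at 0.44, miR-194-5p at 0.17 and miR-192-5p at 0.02. Like miR-122-5p, miR-148a-3p lay below 0, at -0.18.

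None of the 6 miRNAs differed between the sexes past the threshold, where 6.76% of all tested miRNAs did, 3.24% higher and 3.51% lower in females. All 6 passed the filter on low counts. At an unadjusted p of 0.05 in edgeR none passed either, against 67 of the 370 tested, and none had an adjusted p under 0.05 in DESeq2 or limma-voom. The log2 fold changes, female over male, ran from -0.10 for miR-378a-5p to 0.45 for miR-33-5p, with a median of 0.12 beside -0.01 over all tested miRNAs. In 1 of the 6, miR-107-3p, the CPM of the sexes did not overlap, a share of 16.7% beside 21.6% of all tested miRNAs. With 3 animals against 3, an exact permutation test cannot give a p under 0.1.

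**Figure D1:**
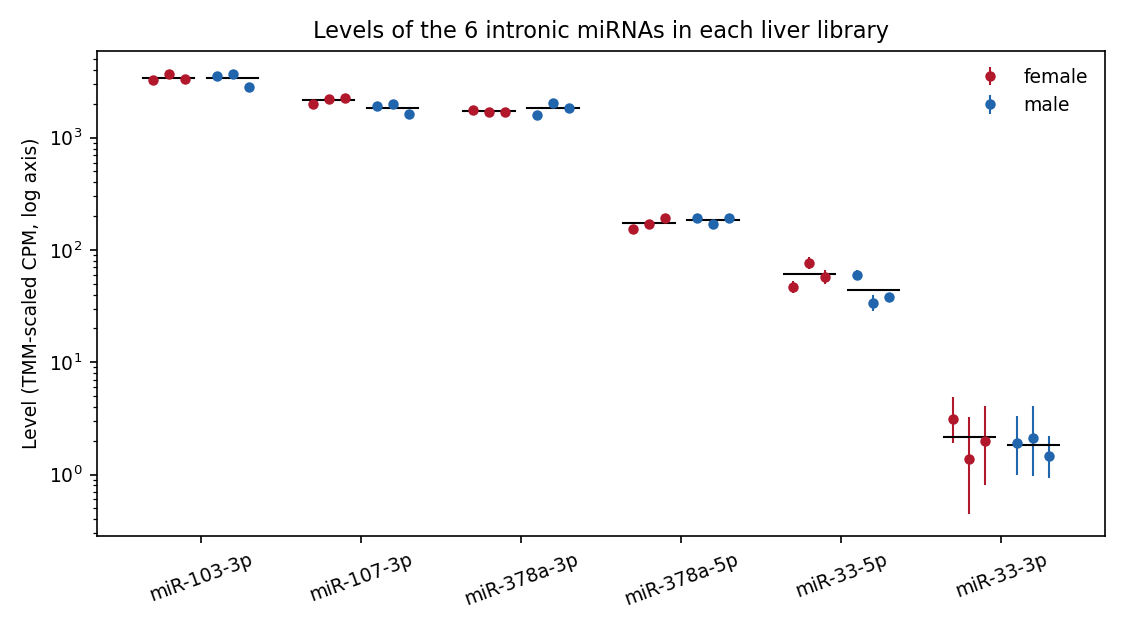
Level of each miRNA in each library, in TMM-scaled CPM on a log axis, with females left of males; bars are 95% counting intervals and black lines are group means. The strands of a hairpin lie far apart, and the sexes overlap in all but miR-107-3p.

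The order of mean levels was miR-103-3p, miR-107-3p, miR-378a-3p, miR-378a-5p, miR-33-5p and miR-33-3p in females and males alike. Over the 6 libraries, miR-103-3p ranked between 28 and 32 among all miRNAs and miR-107-3p between 37 and 46. The rank of miR-378a-3p lay between 39 and 46 and that of miR-378a-5p between 95 and 101. Both strands of miR-33 were rarer, with miR-33-5p at ranks 133 to 171 and miR-33-3p at 325 to 398. Of neighbours in this order, only miR-107-3p and miR-378a-3p changed places between libraries. The ratio of miR-107-3p to miR-378a-3p counts was 1.13, 1.30 and 1.33 in females and 1.21, 0.969 and 0.877 in males (two-sided exact permutation p = 0.2, adjusted p = 0.333). The test of this ratio was not among the planned ones. All other neighbours kept their order in each library.

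The Pank miRNAs were the most abundant of the group. miR-103-3p stood at 3263, 3706 and 3302 CPM in females and at 3568, 3726 and 2829 CPM in males. The lowest and the highest of these values were both male, and the sexes overlapped over the whole female range. Females averaged 3424 ± 245 CPM and males 3374 ± 479 CPM (SD, n = 3 each). On the log2 scale the fold change was 0.02 (SE 0.12, adjusted p = 0.959, edgeR), and its 95% interval, -0.25 to 0.29, corresponds to a fold of 0.843 to 1.22.

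Its relative miR-107-3p, from Pank1, stood at 2009, 2191 and 2250 CPM in females and at 1933, 1981 and 1613 CPM in males. Every female lay above every male, although female replicate 1 and male replicate 2 lay close together. Females averaged 2150 ± 125 CPM and males 1842 ± 200 CPM (SD over 3 animals), 1.17-fold apart. The log2 fold change was 0.22 (SE 0.12, 95% interval -0.04 to 0.48, adjusted p = 0.348, edgeR), which does not pass. The two-sided exact permutation p was 0.1, the smallest that this design allows. Without male replicate 2, the log2 fold change was 0.28 (adjusted p = 0.209, edgeR), and without male replicate 3, the lowest, it was 0.14 (adjusted p = 0.706, edgeR).

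The balance between the near-identical strands can be read within a library, where scaling plays no part. Reads of miR-107-3p made up 38.1, 37.2 and 40.5% of miR-103-3p plus miR-107-3p reads in females and 35.1, 34.7 and 36.3% in males. The groups did not overlap, and 0.839 percentage points lay between the lowest female and the highest male library. The means were 38.6 ± 1.74% in females and 35.4 ± 0.829% in males (SD, n = 3 each), 3.21 percentage points apart. A two-sided exact permutation test gave p = 0.1, again the smallest possible, and 0.25 after adjustment over the 5 within-library quantities tested this way. Leaving out any 1 library gave 2.24 to 3.93 percentage points, higher in females each time. In the closest libraries, the 95% exact binomial interval ran from 36.5 to 37.8% in female replicate 2 and from 36.0 to 36.7% in male replicate 3. These intervals overlap, which by itself does not place the gap between those libraries within counting error, and that gap was not tested. Such intervals cover counting error only, since copies made by PCR are not independent molecules. All counts of both miRNAs were whole numbers, and how the authors assigned reads that lack base 22 is not stated in the sources used here. The part of read length in this balance was not tested.

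**Figure D2:**
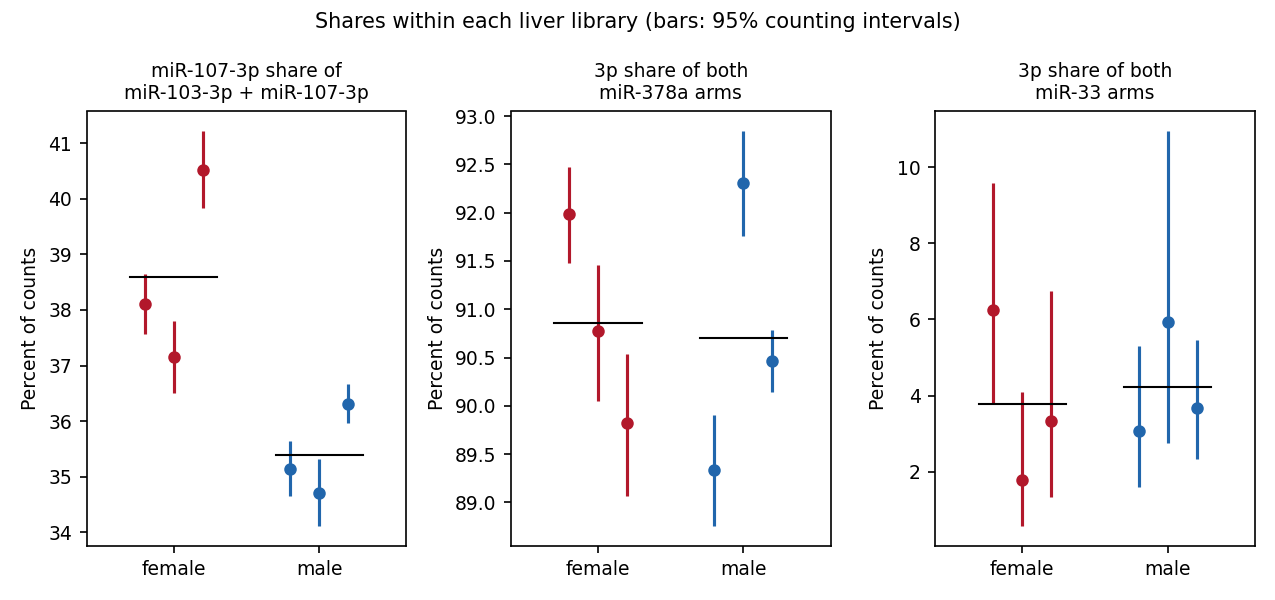
Share of miR-107-3p among miR-103-3p plus miR-107-3p counts, and share of the 3p strand among both strands of miR-378a and of miR-33, in percent per library with 95% exact binomial intervals; black lines are group means and the axes do not start at 0. The sexes separate in the first panel, at 37.2 to 40.5% in females and 34.7 to 36.3% in males, and overlap in the others.

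The 5p strands of the Pank hairpins, which would tell the loci apart, were hardly counted. miR-107-5p had 2, 1 and 0 counts in females and 3, 0 and 0 in males, or 6 of 73969 counts of both strands, a share of 0.00811% with an upper 95% exact limit of 0.0177%. miR-103-1-5p and miR-103-2-5p had 0 counts in all 6 libraries. Against the 127571 counts of miR-103-3p, a count of 0 allows a share of up to 0.00235% by the 3-count limit, and the upper 95% exact limit is 0.00289%. The shares of Pank2 and Pank3 in miR-103-3p were therefore not measurable at this depth.

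From Ppargc1b, miR-378a-3p stood at 1772, 1683 and 1696 CPM in females and at 1601, 2044 and 1840 CPM in males. The females lay close together, inside the range of the males. Females averaged 1717 ± 48.1 CPM and males 1828 ± 222 CPM (SD, n = 3 each; log2 fold change -0.09, SE 0.12, 95% interval -0.36 to 0.17, adjusted p = 0.777, edgeR). Without male replicate 2, its highest library, the log2 fold change was 0.0025, and with no TMM factor 0.05. So no direction can be given for miR-378a-3p.

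The other strand, miR-378a-5p, stood at 154, 171 and 192 CPM in females and at 191, 170 and 194 CPM in males. Again the sexes overlapped, with averages of 173 ± 18.9 CPM for females and 185 ± 12.9 CPM for males (SD, n = 3 each). The log2 fold change was -0.10 (SE 0.16, 95% interval -0.45 to 0.24, adjusted p = 0.795, edgeR), and it was 0.04 with no TMM factor.

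The 3p strand took about the same share of the miR-378a hairpin's counts in every library. It made up 92.0, 90.8 and 89.8% in females and 89.3, 92.3 and 90.5% in males, with means of 90.9 ± 1.08% in females and 90.7 ± 1.5% in males (SD, n = 3 each; exact permutation p = 0.9, adjusted p = 0.9). The sexes overlapped fully. Within each sex the libraries still differed by more than counting error: male replicate 1 had a 95% exact binomial interval of 88.8 to 89.9%, and male replicate 2 one of 91.8 to 92.8%. The SD of the log2 ratio of the strands over the 6 libraries was 0.21, where counting error alone gives 0.05.

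Other miRNAs of the miR-378 family are annotated outside Ppargc1b: miR-378b on chromosome 11, miR-378c on chromosome 14 and miR-378d on chromosome 10, none of them inside a protein-coding transcript on their strand. Their levels are uncertain, since related miRNAs can share reads. miR-378d averaged 759 ± 61.0 CPM for females and 724 ± 96.3 CPM for males. miR-378c averaged 296 ± 30.03 CPM for females and 321 ± 19.96 CPM for males, and miR-378b 34.2 ± 11.9 CPM for females and 29.9 ± 2.96 CPM for males (SD, n = 3 each). None of the 3 passed the threshold, with log2 fold changes of 0.07, -0.11 and 0.19 (adjusted p from 0.766 to 0.842, edgeR). Of the counts of these 3 and miR-378a-3p together, miR-378a-3p took 60.3 to 62.2% in females and 62.1 to 63.8% in males.

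From Srebf2, miR-33-5p varied more between animals than the Pank and miR-378a strands. It stood at 47.1, 76.7 and 57.9 CPM in females and at 59.99, 33.8 and 38.4 CPM in males. Female replicate 2 was the highest library and male replicate 2 the lowest, 2.27-fold apart, while male replicate 1 lay above 2 of the 3 females. The 95% exact Poisson intervals of these 2 libraries, 67.9 to 86.3 CPM and 28.5 to 39.8 CPM, did not meet. Females averaged 60.5 ± 14.98 CPM and males 44.0 ± 14.0 CPM (SD over 3 animals), 1.37-fold apart. The log2 fold change was 0.45 (SE 0.26, 95% interval -0.12 to 1.03, adjusted p = 0.411, edgeR; two-sided exact permutation p = 0.3). The interval runs from a fold of 0.92 to 2.04, so the data bound the difference only loosely.

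Single libraries moved the estimate for miR-33-5p. The log2 fold change was 0.71 without male replicate 1 (adjusted p = 0.112, edgeR), 0.24 without female replicate 2 (adjusted p = 0.837, edgeR) and 0.30 without male replicate 2 (adjusted p = 0.524, edgeR). It stayed positive in all 16 alternative fits that held this miRNA.

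The strand opposite to it, miR-33-3p, was near the limit of detection. It had 19, 5 and 7 counts in females and 12, 9 and 23 in males, which correspond to 3.14, 1.38 and 1.996 CPM in females and 1.90, 2.13 and 1.46 CPM in males. The sexes overlapped (log2 fold change 0.40, SE 0.39, 95% interval -0.45 to 1.26, adjusted p = 0.686, edgeR). The 3p strand made up 6.25, 1.77 and 3.33% of the miR-33 hairpin's counts in females and 3.07, 5.92 and 3.67% in males. The means were 3.79 ± 2.27% in females and 4.22 ± 1.5% in males (SD, n = 3 each; exact permutation p = 0.8, adjusted p = 0.9). In female replicate 2 the 95% exact binomial interval was 0.578 to 4.09%. The SD of the log2 ratio of the strands over the libraries was 0.67, where counting error alone gives 0.46. No difference between the sexes was detected, and these counts bound it only loosely. The miR-33 hairpin thus gave mostly its 5p strand, whereas the miR-378a and Pank hairpins gave mostly their 3p strands.

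**Figure D3:**
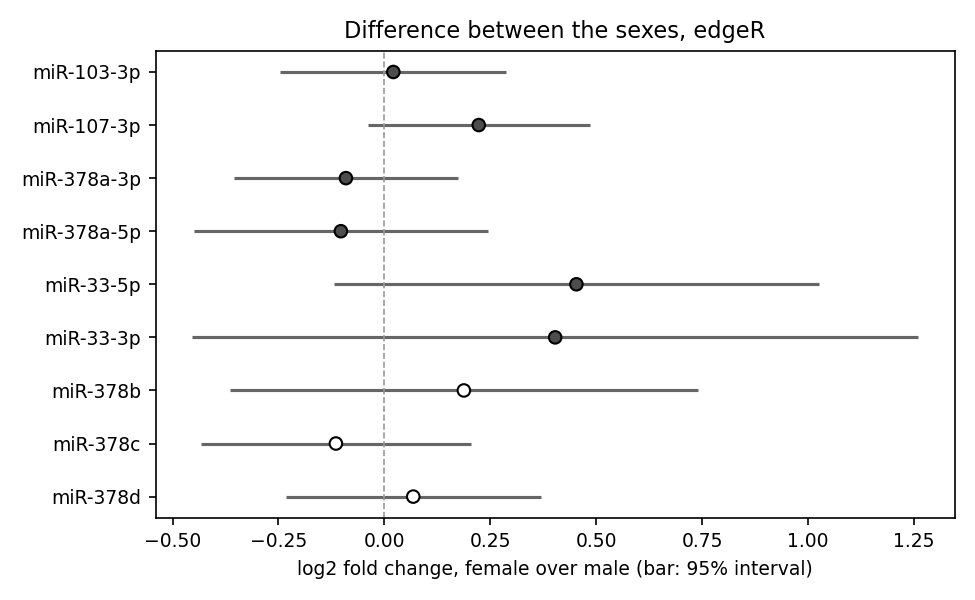
Log2 fold change, female over male, of the 6 intronic miRNAs (filled) and of miR-378b, miR-378c and miR-378d (open) with 95% intervals from the edgeR fit. Every interval includes 0, and those of miR-33-5p and miR-33-3p are the widest of the 6, reaching 1.03 and 1.26.

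Summed over the 6 miRNAs, the share of all miRNA counts depended on the scaling. It was 0.762, 0.806 and 0.801% in females and 0.723, 0.730 and 0.624% in males, without overlap (two-sided exact permutation p = 0.1, adjusted p = 0.25). Relative to TMM-adjusted library sizes, the sum was 0.725, 0.783 and 0.750% in females and 0.736, 0.796 and 0.651% in males, and the sexes overlapped (exact permutation p = 0.7). This second scaling was added after the values were seen. The cause of the difference was not tested, beyond that the TMM factors were 1.03 to 1.07 in females and 0.917 to 0.983 in males.

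Pairs of these miRNAs were then compared by how far they drifted apart, as the SD of the log2 ratio of their counts over the 6 libraries, which no scaling changes. It is a description, and it favours abundant miRNAs with little counting error. miR-103-3p and miR-107-3p stayed close, with an SD of 0.13. Seen from miR-107-3p, miR-103-3p came 7th of the 369 other tested miRNAs, and seen from miR-103-3p, miR-107-3p came 12th; these strands are near-identical and come from separate chromosomes. The strands of the miR-378a hairpin, which are cut from the same transcript, drifted further, with an SD of 0.21, and miR-378a-5p came 86th for miR-378a-3p. From the other 4 strands compared, miR-33-5p drifted by 0.36 from miR-107-3p to 0.55 from miR-378a-3p.

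**Figure D4:**
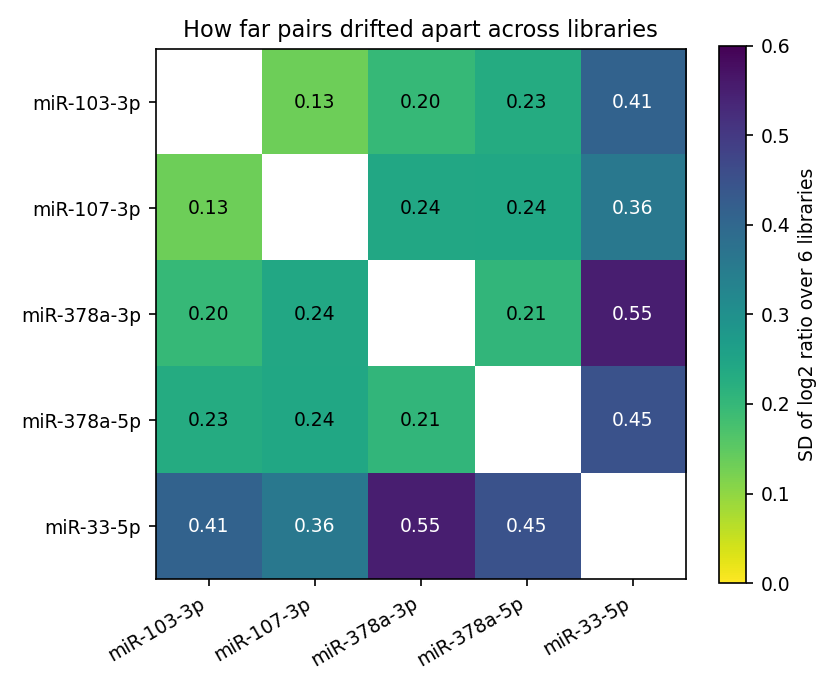
SD of the log2 ratio of counts over the 6 libraries for each pair of the 5 miRNAs with at least 10 counts in every library; a low value means that the pair kept its ratio. The Pank pair has the lowest value, 0.13, and the row of miR-33-5p the highest values, 0.36 to 0.55.

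By the same measure over the 6 libraries, the tested miRNAs closest to each strand were found. The closest to miR-378a-3p were let-7i-5p at an SD of 0.03, let-7b-5p at 0.04 and let-7f-5p at 0.06. miR-378a-5p had miR-15b-3p at 0.06, let-7g-5p at 0.06 and miR-574-3p at 0.07. For miR-103-3p they were miR-361-5p at 0.08, miR-93-5p at 0.10 and miR-542-5p at 0.10. For miR-107-3p they were miR-425-5p at 0.09, miR-542-5p at 0.11 and miR-93-5p at 0.11. The closest to miR-33-5p were farther off, with miR-16-1-3p at 0.16, miR-450a-5p at 0.18 and miR-15a-5p at 0.19. For each strand these were the lowest 3 of 369 values from only 6 libraries, and their closeness was not tested. Some of them were rare. Over the 6 libraries, miR-15b-3p averaged 22.7 CPM, miR-542-5p 11.3 CPM, miR-16-1-3p 9.23 CPM and miR-450a-5p 4.40 CPM. At such levels counting error is large, so these low values cannot be read as shared behaviour.

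Spread between animals of the same sex was also widest for the miR-33 strands. The within-sex SD of log2 CPM was 0.39 for miR-33-5p and 0.40 for miR-33-3p, above the median of 0.27 over all tested miRNAs. It was 0.13 for miR-378a-3p, miR-378a-5p and miR-107-3p and 0.17 for miR-103-3p, all below that median. With 5 to 23 counts per library, miR-33-3p carries large counting error, so its value cannot be read as spread between animals.

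Related lists were described by the same fit. Of the 6 miRNAs of the miR-15 and miR-16 group, which carry the 6 bases AGCAGC 1 position further in than miR-103-3p and miR-107-3p do, none passed; their median log2 fold change was 0.08. Among them miR-16-5p averaged 54760 ± 707 CPM for females and 51869 ± 4109 CPM for males, miR-15a-5p 673 ± 90.8 CPM for females and 554 ± 131 CPM for males, and miR-322-5p 450 ± 28.6 CPM for females and 428 ± 60.1 CPM for males (SD, n = 3 each). The other direction was seen in miR-497a-5p, at a log2 fold change of -0.12, and in miR-195a-5p, both named after their values were seen. miR-195a-5p averaged 195 ± 8.77 CPM for females and 250.3 ± 9.21 CPM for males (log2 fold change -0.36, adjusted p = 0.196, edgeR). Of 18 tested miRNAs linked to lipid and cholesterol metabolism, 2 were higher and 0 lower in females, miR-34a-5p at a log2 fold change of 1.78 and miR-223-3p at 0.62 (median -0.09). That is 11.1%, beside 6.76% of all tested miRNAs. Of 18 linked to insulin and glucose, 2 were higher and 0 lower, the hepatocyte miRNA miR-802-5p at 2.29 and the islet miRNA miR-375-3p at 1.44 (median -0.07), again 11.1% beside 6.76%. miR-375-3p was rare, with averages of 3.47 ± 1.19 CPM for females and 1.31 ± 0.123 CPM for males (SD, n = 3 each). The call of miR-375-3p was lost whichever library was left out (adjusted p 0.0557 to 0.220, edgeR), and that of miR-223-3p in 3 of the 6 such fits (adjusted p up to 0.273, edgeR).

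Among miRNAs listed as intronic in other genes, 0 of 40 tested were higher and 3 lower, or 7.5%, close to the 6.76% over all tested miRNAs. These 3 were both strands of miR-455 from Col27a1, miR-455-5p at -0.93 and miR-455-3p at -1.02, and miR-1948-3p from Ttc39c at -2.16. The call of miR-455-3p was lost in 3 of the 6 fits without a library (adjusted p up to 0.118, edgeR). The median log2 fold change of the 40 was 0.02. The annotation placed 43 of the 46 listed in an intron at the table's position; miR-191-5p, miR-425-5p and miR-7a-5p, all tested, had none there.

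Markers of other cells were summed as shares of the counts. The 2 endothelial markers, the strands of miR-126a, made up 7.24 to 7.46% in females and 6.58 to 7.47% in males, with log2 fold changes of -0.07 and 0.02. The 5 leukocyte markers, myeloid and lymphoid miRNAs, each had a log2 fold change above 0 (median 0.35), and 1 was higher, miR-223-3p, and 0 lower, where 3.24% of all tested miRNAs were higher. As given above, this call was lost in 3 of the 6 fits without a library. Their summed share was 0.425 to 0.477% of counts in females and 0.266 to 0.438% in males. The 6 muscle markers, of interest because miR-378a is abundant in muscle, summed to 0.00189 to 0.00376% in females and 0.00175 to 0.00345% in males, with miR-208a-3p at 0 in all libraries. The 5 stromal markers, all with a log2 fold change below 0 (median -0.21), summed to 0.952 to 1.20% in females and 1.17 to 1.19% in males, and the 5 biliary markers, also all below 0 (median -0.22), to 0.0757 to 0.0927% in females and 0.0790 to 0.1003% in males. The 4 erythroid markers, all above 0 (median 0.18), summed to 0.0235 to 0.0390% in females and 0.0225 to 0.0260% in males. None of the endothelial, stromal, biliary or erythroid markers passed, the lowest adjusted p being 0.0998 for the stromal miR-199a-3p (edgeR). The part of these cells in the levels above was not tested, and in whole liver fewer cells of a type cannot be told apart from less miRNA per cell.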

How the data were processed

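Liver pieces were frozen in a stabilising buffer and their small RNA was prepared for sequencing with a kit from Qiagen, per the labels' protocols. The authors deposited estimated counts of reads per mature miRNA, with no normalisation. The submitters' processing notes name mm10, Bowtie and Partek. Their settings, read trimming, the treatment of reads that match several miRNAs and of molecular identifiers were not stated. Of the values, 98.9% were whole numbers (no tolerance), as were all 36 of the 6 miRNAs. The counts of miR-122-5p were written as rounded values, from 1110000 to 5690000, so library totals are not exact to the single count. Of 2045 rows, 138 repeated another exactly and were left out. RefSeq holds 1623 of the 1907 names, 1613 of them at the table's own position once its stop column is read as the base after the end; the sequence of miR-378a is not reported here.

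Samples were grouped by the labelled sex and numbered in accession order, which pairs no animals. Numbers in the titles are lower for all males than for all females, so sex and that numbering cannot be told apart. The libraries were taken as separate animals; if they are not, p-values measure technical spread only. No pair was a duplicate (chi-square per degree of freedom at least 25.3). Rounded counts were fitted with edgeR 4.0.16 in R 4.3.3 (robust quasi-likelihood test, TMM, filterByExpr by sex with a minimum count of 10 and total of 15). Benjamini-Hochberg adjustment ran over all 370 tested miRNAs, and 0.05 was the threshold. The fit was tested on data simulated with the same dispersion for all miRNAs. It called 27 of 62 miRNAs with a true 1.5-fold change, 56 of 62 with a 2-fold and 59 of 59 with a 4-fold change. It also called 4 of 185 unchanged miRNAs. Small differences can therefore be missed. Standard errors and 95% intervals come from the same test. For log2 ratios, 0.5 was added to each count. Without the TMM adjustment, 1 count stood for 0.0608 to 0.304 CPM. Alternatives used other scalings and filters, DESeq2 1.42.0, limma-voom (limma 3.58.1), repeated rows kept, both Pank strands summed, and each library left out. The miRNAs, the lists and the naming rule were chosen with earlier results of these data known. By that rule, the 6 miRNAs, their relatives, miR-122-5p and the 3 closest miRNAs of each strand were named. So were list members that passed or, in a list with none, up to 3 of its most abundant. A few others were named outside the rule, such as miR-497a-5p and miR-195a-5p after their values were seen.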

Additional observations from a re-analysis of the deposited data

How the results depend on the processing

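No alternative made any of the 6 miRNAs pass: of 92 values, 85 kept their direction and 7 changed sign, all 92 below the threshold. Another scaling shifts all miRNAs nearly alike: over all tested miRNAs the median log2 change was 0.13 with no TMM factor and -0.10 with upper-quartile factors, beside -0.01 with TMM. Relative to that median, miR-107-3p stood at 0.23 with each of the 3 scalings, and miR-33-5p at 0.46, 0.45 and 0.45 with TMM, no factor and upper-quartile factors. Without subtracting the median, miR-107-3p had 0.36 with no TMM factor (unadjusted p = 0.0105, adjusted p = 0.0899, edgeR). That was the lowest adjusted p of the 92 values. With upper-quartile factors it had 0.13 (adjusted p = 0.602, edgeR). With no TMM factor, miR-378a-3p had 0.054 and miR-378a-5p 0.037. The log2 fold change of miR-103-3p was -0.075 with upper-quartile factors, -0.011 with at least 50 counts in 3 libraries, -0.047 without female replicate 2 and -0.091 without male replicate 3. With miR-103-3p and miR-107-3p summed it was 0.07. Without male replicate 2, miR-378a-3p had 0.0025.

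When a library was left out, log2 fold changes ranged from 0.24 to 0.71 for miR-33-5p, -0.20 to 0.0025 for miR-378a-3p, -0.18 (without female replicate 3) to -0.045 (without female replicate 1) for miR-378a-5p, -0.091 to 0.10 for miR-103-3p and 0.14 to 0.28 for miR-107-3p. They were 0.47 to 0.60 for miR-33-3p in the 3 such fits that held it. Female minus male, the miR-33 3p share changed sign, at 0.57 percentage points without female replicate 2 and 0.42 without male replicate 2, from a lowest value of -1.67 without female replicate 1. So did the miR-378a 3p share, at -0.41 without female replicate 1 and -0.53 without male replicate 1, with a highest value of 0.954 without male replicate 2. The 25 miRNAs past the threshold became 9 when female replicate 2 was left out, 10 for female replicate 3, 12 for male replicate 3 and up to 32 for female replicate 1. The cause of these changes was not tested.

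miR-33-3p could not be fitted in 4 of the 16 alternatives, where it failed the filter. The planned split of Pank 5p counts among the 3 hairpins was not compared between libraries, because there were 6 such counts in all, each of miR-107-5p. No paired analysis was possible because the labels give the animals no shared numbers.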
